A study of Mus musculus with 20 samples.

Results

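Matrix metalloproteinases (MMPs) and their tissue inhibitors (TIMPs) were followed at the transcript level in classically activated mouse macrophages, in 9 genes of the 56748 listed: Mmp12, Mmp13, Mmp14, Mmp9, Mmp8, Mmp19, Timp1, Timp2 and Timp3. They were taken by name from the gene count tables of both experiments of the study. The set was chosen by the measured fold change of Mmp12, one of the largest decreases in stimulated iNOS KO cells. The comparison of stimulated iNOS KO with stimulated wildtype cells therefore chose the set, and the values of its members in that comparison are given as a description with no test. At least 10 counts in total were held by 8 of the 9 genes in the iNOS experiment and by 6 of the 9 in the Akr1a1 experiment, and these genes were tested.

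The iNOS experiment held 12 libraries from wildtype and iNOS KO cells, either left unstimulated or stimulated for 48 h with LPS at 50 ng/mL and IFNγ at 30 ng/mL, with 3 libraries in each of the 4 groups. Its labels name the cells BMDM, macrophages grown with M-CSF at 20 ng/mL from the marrow of C57BL/6J mice, either wildtype or iNOS KO, of 6 to 12 weeks and of either sex. The study's methods give RAW264.7 cells for this RNA-seq and describe the mouse knockout as the B6.129P2-Nos2tm1Lau/J strain, with marrow pooled by genotype and a higher lowest age. The sources therefore differ on what these cells were, and they are called the libraries labelled BMDM. The Akr1a1 experiment held 8 libraries of RAW264.7 cells, a mouse macrophage line, either wildtype or Akr1a1 KO by CRISPR in clones grown from single sorted cells. Cells were left without stimulus or given LPS at 50 ng/mL and IFNγ at 10 ng/mL for 48 h, with 2 libraries per group. The study's methods describe the replicates as biological in the iNOS experiment and as independent clones in the Akr1a1 experiment. The labels do not say which animals, cultures or clones they came from, so p-values measure the spread between these samples only. In the iNOS experiment, loss of iNOS cannot be told apart from the strain, marrow pool or cell line that carried each genotype. In bulk RNA, fewer cells expressing a gene and less of its RNA per cell cannot be told apart.

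Library totals ran from 15072109 to 18878107 counts in the iNOS experiment and from 11876719 to 44583327 in the Akr1a1 experiment. Values are CPM, counts scaled to a common library size after TMM, and the 2 experiments were scaled separately. Nos2, the gene of iNOS, was at 10370 to 11533 CPM in stimulated wildtype and at 870 to 912 CPM in stimulated iNOS KO libraries, and held 0 counts in the 3 unstimulated iNOS KO libraries. Akr1a1 was at 576 to 675 CPM in stimulated wildtype RAW264.7 libraries and at 212 to 370 CPM in stimulated Akr1a1 KO libraries, and at 427 to 488 and 21.8 to 206 CPM in the unstimulated ones. It was lower in every Akr1a1 KO library but did not pass by edgeR, with log2 fold changes of -1.10 stimulated (edgeR adjusted p = 0.643) and -2.01 unstimulated (edgeR adjusted p = 0.560). Of 10 macrophage markers, 9 or 10 had a mean over 1 CPM in every group. Mertk held 0 counts in the unstimulated Akr1a1 KO libraries. The 10 summed to 6087 to 13746 CPM in the libraries labelled BMDM and to 3649 to 12797 CPM in RAW264.7 cells. Pycard, which RAW264.7 cells are known to lack, did not exceed 0.832 CPM in the libraries labelled BMDM and 0.563 CPM in the RAW264.7 libraries of the Akr1a1 experiment, a level that goes against the label BMDM and was not taken to reassign any library. Replicate B of both unstimulated RAW264.7 groups has a title that says stimulated and a treatment field that says unstimulated, and the field was followed. Nos2 was at 4.21 to 54.7 CPM in the 4 libraries taken as unstimulated, replicate B of each genotype included, and at 4155 to 8806 CPM in the 4 stimulated ones.

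MMPs are zinc-dependent proteases that cut proteins of the extracellular matrix and many secreted or surface proteins. They are made as inactive proenzymes with a propeptide that is removed by other proteases, and TIMPs bind the active site and block it. In macrophages they are known for matrix turnover, cell migration and the trimming of chemokines. Mmp12 is the macrophage elastase, Mmp8 and Mmp13 are collagenases, Mmp9 is a gelatinase, Mmp14 is a membrane-anchored protease that also activates other MMPs, and Mmp19 is a secreted member expressed in many tissues. Timp1, Timp2 and Timp3 are secreted inhibitors, of which Timp3 is held in the matrix.

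Mmp12, Mmp13 and Mmp8 lie in a cluster of MMP genes on chromosome 9, where 10 of the 23 MMP genes listed stand between positions 7272514 and 7699586, a span of 427 kb. The tables name no genome build, and their positions do not line up with the promoter windows below for all members. Mmp14 is listed from 54669069, while its window lies at 54431448 to 54431597. Timp1 is listed from 20736405, with its window at 20870016 to 20870165. Gene positions and window positions are therefore not to be set against each other. Mmp13 ended 61 kb before the start of Mmp12. Promoter sequence was drawn from RefSeq on GRCm38.p6 for 7 of the 9 genes, all but Mmp9 and Mmp19, as the 150 bases before each annotated start. It was searched on both strands for AP-1 (TGANTCA), GAS (TTCNNNGAA), PEA3 (AGGAAG), an ISRE-like motif (GAAANNGAA) and κB. The windows of Mmp12 are shown because the set turns on it, and that of its neighbour Mmp13 because both rose with stimulation. That of Mmp14 is shown because it was also lower in unstimulated iNOS KO than in unstimulated wildtype libraries. Capitals mark the matches, on either strand, and each sequence reads 5′ to 3′ along its gene's strand, which is the plus strand in all 4 windows.

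Mmp12, start 1, chr9:7344247-7344396: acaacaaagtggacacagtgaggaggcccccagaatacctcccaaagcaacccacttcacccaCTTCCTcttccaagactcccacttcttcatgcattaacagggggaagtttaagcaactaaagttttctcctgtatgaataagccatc
Mmp12, start 2, chr9:7347224-7347373: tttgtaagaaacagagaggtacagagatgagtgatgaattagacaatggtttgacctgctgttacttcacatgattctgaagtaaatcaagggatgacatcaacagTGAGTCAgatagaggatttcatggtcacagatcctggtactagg
Mmp13, chr9:7272364-7272513: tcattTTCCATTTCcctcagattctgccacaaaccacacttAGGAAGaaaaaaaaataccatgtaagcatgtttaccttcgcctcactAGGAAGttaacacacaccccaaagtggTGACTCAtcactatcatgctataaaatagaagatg
Mmp14, chr14:54431448-54431597: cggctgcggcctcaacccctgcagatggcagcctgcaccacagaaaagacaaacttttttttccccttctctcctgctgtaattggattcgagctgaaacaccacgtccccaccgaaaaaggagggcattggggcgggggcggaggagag

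Mmp12 has 2 annotated starts. The window of its first start held a PEA3 match that began at position -87 from the start, and that of the second an AP-1 match at position -44. The Mmp13 window held an AP-1 match at position -35, 2 PEA3 matches and an ISRE-like match. No searched motif was in the windows of Mmp14, Mmp8, Timp2 and Timp3, and Timp1 held a PEA3 match at position -99. Over 32851 promoter windows of the same length, AP-1 was found in 4.24%, GAS in 4.09%, PEA3 in 19.7%, the ISRE-like motif in 3.95% and κB in 2.38%. These matches are letters only, and no binding was measured.

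Mmp12 (ENSMUSG00000049723, chromosome 9, 7344381 to 7369499, plus strand) is the member the set turns on. In the iNOS experiment its levels were 14.1, 13.2 and 12.6 CPM in unstimulated wildtype libraries and 862, 781 and 887 CPM in stimulated wildtype libraries. In iNOS KO libraries they were 3.27, 2.84 and 2.78 CPM unstimulated and 14.8, 11.0 and 16.2 CPM stimulated. Stimulated iNOS KO libraries therefore overlapped with unstimulated wildtype libraries, while unstimulated iNOS KO lay below both and stimulated wildtype far above. The means of the 4 groups, in the order unstimulated iNOS KO, unstimulated wildtype, stimulated iNOS KO and stimulated wildtype, were 2.96 ± 0.27, 13.3 ± 0.721, 14.0 ± 2.67 and 844 ± 55.6 CPM (SD, n = 3). These levels rested on 11569 to 12800 counts per stimulated wildtype library and on 153 to 271 counts per stimulated iNOS KO library.

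Between stimulated genotypes, the comparison that chose the set, the mean of Mmp12 was 60.2-fold lower in iNOS KO than in wildtype, a log2 fold change of -5.90 (SE 0.117). Among 8824 protein-coding genes with an edgeR average log2 CPM over 3, this was the second lowest fold change, between Sprr2i at -6.08 and Scarf1 at -5.49. The stimulated mean was 63.4-fold the unstimulated mean in wildtype and 4.73-fold in iNOS KO, log2 fold changes of 5.98 (SE 0.116) and 2.24 (SE 0.136). Their difference, the interaction of genotype and stimulation, was -3.74 (SE 0.184) on the log2 scale and holds the comparison that chose the set.

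**Figure D1:**
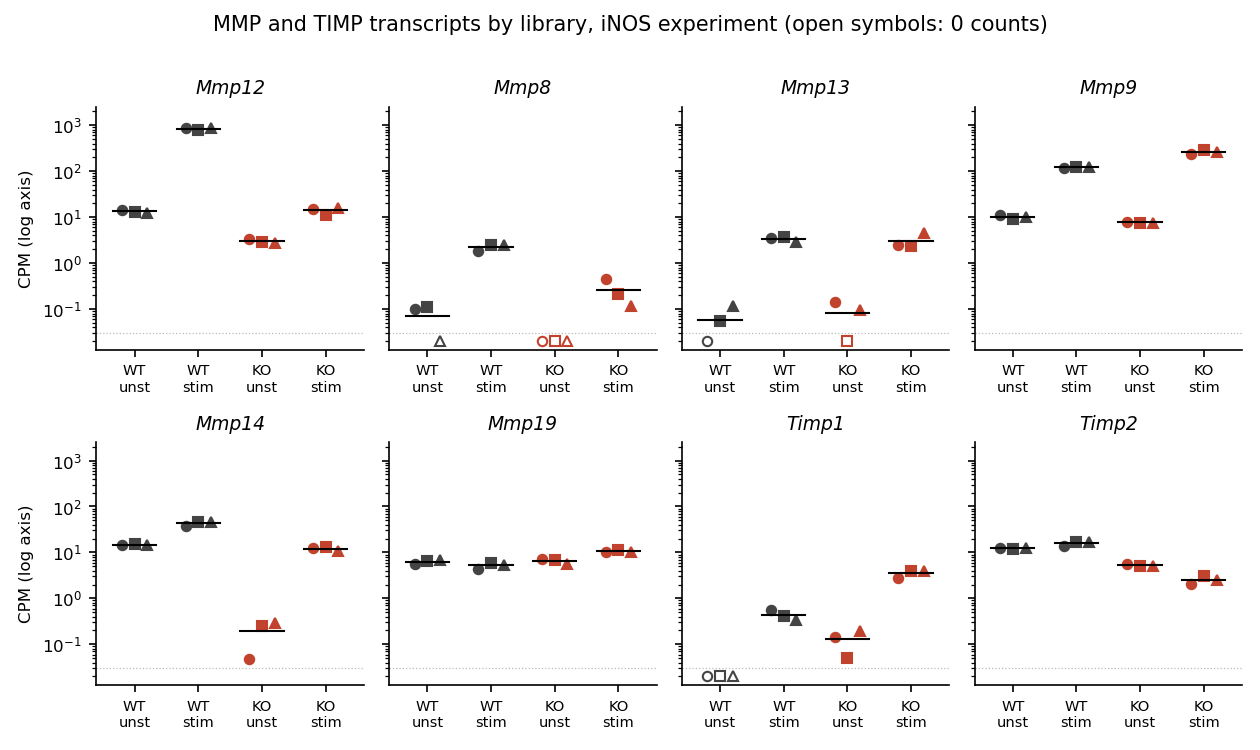
Levels of MMP and TIMP transcripts in the iNOS experiment, in CPM on a log axis, for wildtype (WT, grey) and iNOS KO (red) libraries, unstimulated and stimulated. Circles, squares and triangles are replicates A, B and C, lines are group means, and open symbols under the dotted line are libraries with 0 counts. Mmp12 stood at 781 to 887 CPM in stimulated wildtype libraries and at 11.0 to 16.2 CPM in stimulated iNOS KO libraries, close to the 12.6 to 14.1 CPM of unstimulated wildtype libraries.

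The fold change of Mmp12 that chose the set compared stimulated libraries only. The members were, however, chosen with earlier results of these data known, and the fit was made over all 12 libraries. Values of the unstimulated libraries are therefore not shown to be independent of the choice. In the unstimulated libraries, Mmp12 was 4.49-fold lower in iNOS KO than in wildtype, with a log2 fold change of -2.16 (SE 0.135). The quasi-likelihood test of edgeR gave an adjusted p of 3.05e-08, by the Benjamini-Hochberg method over all genes tested. The 3 libraries of each genotype did not overlap, and the value stayed between -2.24 and -2.12 when any 1 library was left out. Nos2 itself was at 1.25 to 1.53 CPM in these unstimulated wildtype libraries.

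Across members, 3 of the 8 tested passed the threshold between unstimulated genotypes (edgeR adjusted p below 0.05 together with a log2 fold change beyond 1 in size), and all 3 were lower in iNOS KO. Over all genes tested, 1.66% passed, 0.653% higher and 1.01% lower. The members' median log2 fold change was -0.82, beside -0.01 over all genes. Mmp12, Mmp14 and Timp2 made up the 3 calls. Of the other members tested, Mmp13, Mmp8 and Timp1 met the filter on total counts only through the stimulated libraries.

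Mmp14 (chromosome 14, 54669069 to 54682821, plus strand) had the largest difference of the 8 members between unstimulated genotypes. Unstimulated wildtype libraries were at 14.8, 15.3 and 14.3 CPM, whereas unstimulated iNOS KO libraries were at 0.048, 0.249 and 0.293 CPM, from 1, 5 and 6 counts. The mean was 75.3-fold lower, with a log2 fold change of -6.19 (SE 0.239) and an edgeR adjusted p of 3.33e-10. Stimulation raised Mmp14 in both genotypes. Stimulated wildtype libraries were at 38.2, 46.2 and 46.9 CPM, and stimulated iNOS KO libraries at 12.6, 13.3 and 10.6 CPM. The latter lay below even the unstimulated wildtype libraries, with no overlap.

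The response of Mmp14 was 1.56 (SE 0.123, edgeR adjusted p = 6.03e-09) in wildtype and 5.90 (SE 0.247, edgeR adjusted p = 2.5e-12) in iNOS KO on the log2 scale, the second from a base of few counts. The stimulated difference between genotypes, given as a description, was -1.85 (SE 0.127). Mmp14 was thus lower in iNOS KO in both states, by less on the log2 scale in stimulated than in unstimulated cells, which is the opposite of Mmp12. Responses to stimulation in the iNOS experiment use the same stimulated libraries that chose the set, and both responses of Mmp12 are given with no test for that reason.

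Mmp9 (chromosome 2, 164782700 to 164797770, plus strand) went the other way. Its levels in unstimulated libraries were 10.9, 8.95 and 10.0 CPM in wildtype and 7.80, 7.56 and 7.61 CPM in iNOS KO, a log2 fold change of -0.38 (SE 0.104, edgeR adjusted p = 0.0377) that was under the fold limit. After stimulation they were 118, 126 and 127 CPM in wildtype and 237, 292 and 262 CPM in iNOS KO. Every stimulated iNOS KO library was above every stimulated wildtype library, with a described log2 fold change of 1.09 (SE 0.0806). The rise with stimulation was 3.63 (SE 0.0951, edgeR adjusted p = 3.03e-15) in wildtype and 5.10 (SE 0.0997, edgeR adjusted p = 1.42e-16) in iNOS KO on the log2 scale.

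The collagenases were low. Mmp13 (chromosome 9, 7272514 to 7283331, plus strand) held 0, 1 and 2 counts in unstimulated wildtype and 3, 0 and 2 counts in unstimulated iNOS KO libraries. Its stimulated levels were 3.46, 3.65 and 2.91 CPM in wildtype libraries and 2.44, 2.31 and 4.42 CPM in iNOS KO libraries, so the stimulated genotypes overlapped (log2 fold change -0.12, SE 0.290). The rise was 61.4-fold in wildtype, with an exact 95% counting interval of 20.6 to 301 and an edgeR adjusted p of 8.4e-08. In iNOS KO the rise was 5.12 on the log2 scale (SE 0.506, edgeR adjusted p = 2.13e-07), and 5.77 without replicate A of the unstimulated iNOS KO libraries. The fitted wildtype rise moved from 5.76 to 5.17 without replicate A and to 6.64 without replicate C of the unstimulated wildtype libraries. Counting intervals and limits cover counting error only.

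Mmp8 (chromosome 9, 7558457 to 7568486, plus strand) was at 1.80, 2.50 and 2.50 CPM in stimulated wildtype libraries and at 0.45, 0.216 and 0.119 CPM in stimulated iNOS KO libraries, the latter from 7, 3 and 2 counts. The described stimulated log2 fold change was -3.09 (SE 0.462), and -3.75 without replicate A of the stimulated iNOS KO libraries. In unstimulated cells Mmp8 held 2, 2 and 0 counts in wildtype and 0 counts in all 3 iNOS KO libraries, and no difference was detectable at this depth (edgeR adjusted p = 0.243). It rose with stimulation by 4.83 on the log2 scale in wildtype (SE 0.555, edgeR adjusted p = 2.01e-06) and was at least 5.31-fold higher in iNOS KO (edgeR adjusted p = 0.00255), a bound taken against 3 counts over the unstimulated group. The fitted value of that iNOS KO rise went from 5.20 to 4.56 without replicate A of the stimulated group.

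Mmp19 (chromosome 10, 128626779 to 128636693, plus strand) varied least among the detected MMPs. It was at 5.63, 6.50 and 6.81 CPM in unstimulated wildtype and at 7.32, 6.97 and 5.61 CPM in unstimulated iNOS KO libraries (log2 fold change 0.07, edgeR adjusted p = 0.856). Stimulated libraries were at 4.43, 5.87 and 5.34 CPM for wildtype and at 10.2, 11.5 and 10.4 CPM in iNOS KO. The described stimulated log2 fold change was 1.03 (SE 0.144), just over the fold limit, and it was 0.98 without replicate B of stimulated iNOS KO and 0.93 without replicate A of stimulated wildtype. Its response was -0.27 in wildtype (edgeR adjusted p = 0.127) and 0.69 in iNOS KO (SE 0.135, edgeR adjusted p = 0.000376), under the fold limit. Mmp19 overlaps Tmem198b on the opposite strand, which was at 6.45 to 8.51 CPM in stimulated iNOS KO and at 8.38 to 9.93 CPM in stimulated wildtype libraries. Whether the counting used strand is not given in the sources used here, so reads of the 2 genes could be mixed.

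The inhibitors split. Timp2 (chromosome 11, 118191895 to 118246566, minus strand) was at 12.7, 12.1 and 12.4 CPM in unstimulated wildtype and at 5.49, 5.03 and 5.07 CPM in unstimulated iNOS KO libraries. That difference was -1.25 on the log2 scale (SE 0.121, edgeR adjusted p = 3.68e-06), and the genotypes did not overlap. Stimulated libraries were at 14.0, 16.5 and 16.6 CPM for wildtype and at 2.06, 3.03 and 2.57 CPM in iNOS KO, a described log2 fold change of -2.63 (SE 0.140). With stimulation Timp2 changed by 0.34 in wildtype (SE 0.113, edgeR adjusted p = 0.0155), under the fold limit. In iNOS KO it fell by 1.03 on the log2 scale (SE 0.151, edgeR adjusted p = 2e-05). This fall was no longer past the fold limit without replicate A of the stimulated iNOS KO libraries (-0.92) or without replicate A of the unstimulated ones (-0.99).

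Timp1 (chromosome X, 20736405 to 20740974, plus strand) ran opposite to Timp2 between genotypes. It held 0 counts in the 3 unstimulated wildtype libraries and 3, 1 and 4 counts in the unstimulated iNOS KO libraries, at least 2.39-fold higher in iNOS KO. This did not pass over all genes (edgeR adjusted p = 0.0654), but the adjusted p was 0.0406 without replicate B of stimulated iNOS KO, 0.0497 without replicate B of unstimulated iNOS KO and 0.0412 in edgeR with no filter on low counts. Stimulated libraries were at 0.554, 0.405 and 0.347 CPM for wildtype, from 8, 6 and 5 counts, and at 2.83, 4.04 and 4.0 CPM in iNOS KO. The described stimulated mean was 8.32-fold higher in iNOS KO (log2 fold change 3.04, SE 0.332). Timp1 was at least 7.99-fold higher with stimulation in wildtype (edgeR adjusted p = 0.000134) and rose by 4.72 on the log2 scale in iNOS KO (SE 0.381, edgeR adjusted p = 6.65e-08). Timp1 lies within Syn1 on the opposite strand. Syn1 was lower in stimulated iNOS KO (6.45 to 8.44 CPM) than in stimulated wildtype libraries (12.7 to 14.9 CPM), opposite to Timp1. Timp3 (chromosome 10, 86136236 to 86185370, plus strand) held 0 counts in all 20 libraries of both experiments, where 3 counts correspond to 0.144 to 0.216 CPM in the iNOS experiment and 0.0645 to 0.236 CPM in the Akr1a1 experiment.

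**Figure D2:**
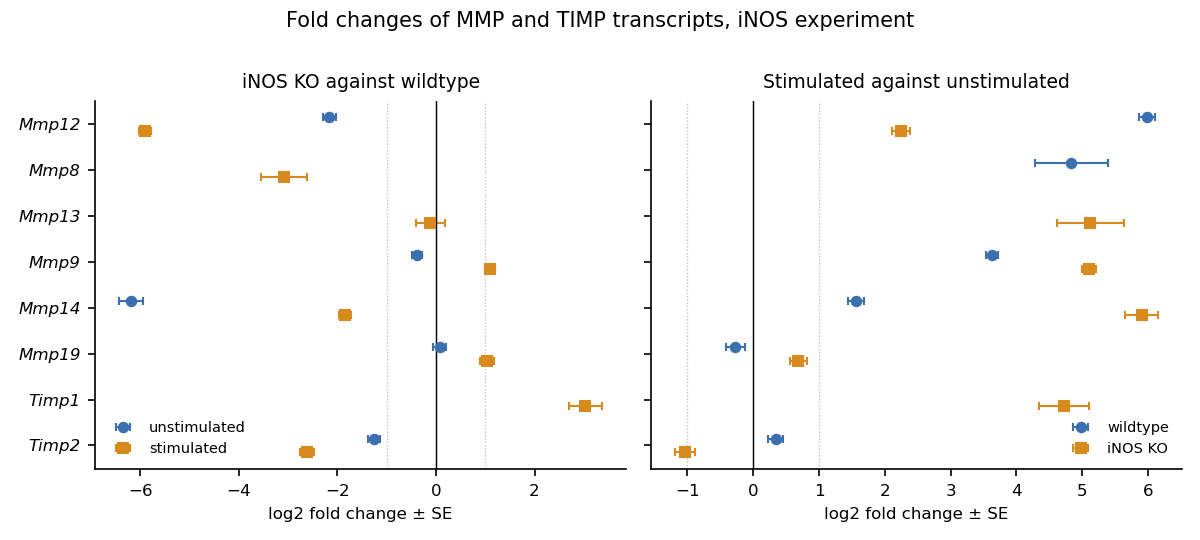
Log2 fold changes of MMP and TIMP transcripts in the iNOS experiment with their standard errors, for iNOS KO against wildtype in each state and for stimulated against unstimulated cells in each genotype. Dotted lines mark -1 and 1, and members with 3 counts or fewer in one of the groups are left out of that comparison. Mmp12 and Timp2 were further below 0 in stimulated (-5.90 and -2.63) than in unstimulated cells (-2.16 and -1.25), and Mmp14 less so (-1.85 against -6.19).

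In the comparison that chose the set, 7 of the 8 members had values beyond the limits used for calls, 3 higher and 4 lower in stimulated iNOS KO, as had 19.6% of all genes, 10.7% higher and 8.87% lower. This count describes how the set was chosen and is no test of it. Mmp9, Mmp19 and Timp1 were higher, and Mmp12, Mmp14, Mmp8 and Timp2 lower, with a median over the 8 of -0.98 on the log2 scale. Leaving Mmp12 aside, 5 of the other 7 passed with stimulation in wildtype and all 5 were higher, where 35.4% of all genes passed, 19.7% higher and 15.7% lower. In iNOS KO 5 of these 7 were higher and 1 lower, where 22.8% of all genes passed, 14% higher and 8.78% lower. The interaction contains the comparison that chose the set and its values are a description, beside 35.4% of all genes past an adjusted p of 0.05. It was 4.34 for Mmp14, 1.47 for Mmp9, 0.96 for Mmp19, -1.37 for Timp2 and -3.74 for Mmp12 on the log2 scale.

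Levels of different genes were set side by side per kb of the length that the tables list, which is 7237 bases for Mmp12. Summed over the 6 MMPs, the level was 8.98 ± 0.151 CPM per kb in unstimulated and 162 ± 7.25 CPM per kb in stimulated wildtype libraries. It was 4.51 ± 0.292 CPM per kb in unstimulated and 82.7 ± 7.73 CPM per kb in stimulated iNOS KO libraries (SD, n = 3 each). The makeup of the sum differed more than the sum. Mmp12 gave 69.5 to 73.5% of it in stimulated wildtype libraries but 1.68 to 2.73% in stimulated iNOS KO libraries, where Mmp9 gave 89.2 to 91.2%. Summed TIMPs were at 4.52 ± 0.265 CPM per kb in stimulated wildtype and 4.73 ± 0.887 CPM per kb in stimulated iNOS KO libraries, so the sums overlapped. Of the TIMP sum, Timp2 gave 85.6 to 95.8% in unstimulated iNOS KO libraries and 12.8 to 14.6% in stimulated ones.

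The ratio of the MMP sum to the TIMP sum was 2.80 to 2.85 in unstimulated wildtype and 2.76 to 3.37 in unstimulated iNOS KO libraries, which overlapped. It was 33.2 to 38.5 in stimulated wildtype and 16.0 to 20.2 in stimulated iNOS KO libraries, which did not. Without the division by length the stimulated means of the ratio were 63.7 and 49.9, against 36.0 and 17.7 with it. The MMP sum holds Mmp12, so the stimulated sums, their makeup and their ratios contain the comparison that chose the set and are a description. Among the other MMPs, Mmp9 averaged 34.9 CPM per kb in stimulated wildtype and 74.5 in stimulated iNOS KO libraries, and Mmp14 averaged 7.34 and 2.04. No ratio without Mmp12 was computed. These are ratios of transcripts, and neither protein nor activity was measured in these files.

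**Figure D3:**
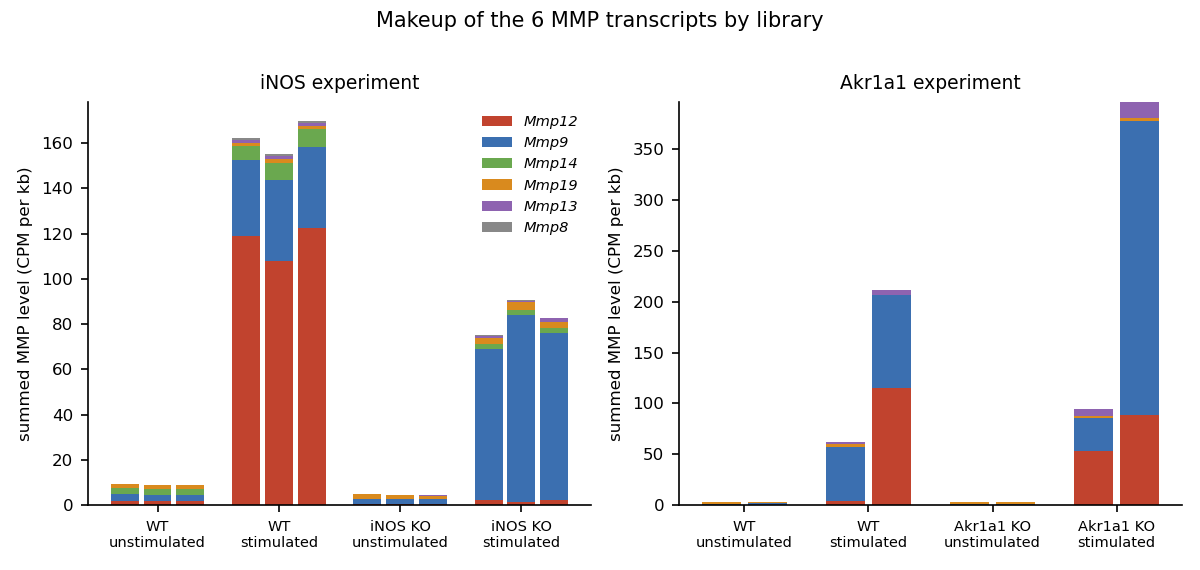
Summed level of 6 MMP transcripts in each library, in CPM per kb of listed gene length, stacked by gene, for the iNOS experiment (left) and the Akr1a1 experiment (right). Mmp12 filled 69.5 to 73.5% of the bars of stimulated wildtype and 1.68 to 2.73% of those of stimulated iNOS KO libraries, and Mmp9 filled 89.2 to 91.2% of the latter. The set was chosen by the decrease of Mmp12 in stimulated iNOS KO cells, so these shares are a description.

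Marker lists were set beside these differences. The 10 macrophage markers summed to 8521 to 8854 CPM in unstimulated wildtype, 6087 to 6470 CPM in unstimulated iNOS KO, 8565 to 9477 CPM in stimulated wildtype and 13066 to 13746 CPM in stimulated iNOS KO libraries. Osteoclast markers, a list of 8 genes, summed to 719 to 801 CPM in stimulated wildtype and 466 to 508 CPM in stimulated iNOS KO libraries, and to 839 to 875 and 1048 to 1097 CPM in the unstimulated ones. Neutrophil markers, shown because Mmp8 is also known as neutrophil collagenase, summed to 35.8 to 62.1 CPM in stimulated wildtype and 38.5 to 44.3 CPM in stimulated iNOS KO libraries. Ly6g, S100a9, Cxcr2 and Ltf were at 0 in both. Of the 10 listed, only 1 in stimulated wildtype and 2 in stimulated iNOS KO had a mean over 1 CPM. Fibroblast markers summed to 3.78 to 5.13 CPM in stimulated wildtype and 11.5 to 17.1 CPM in stimulated iNOS KO libraries, with Col3a1 and Thy1 at 0, and did not exceed 0.389 CPM in unstimulated ones. Of these 8 genes, 2 in stimulated wildtype and 1 in stimulated iNOS KO had a mean over 1 CPM. Lymphocyte markers did not exceed 1.32 CPM. The part of these in the members' differences was not tested.

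The genes whose log2 CPM followed Mmp12 most closely over the 12 libraries of the iNOS experiment were Lrp12 (Pearson's r = 0.996), Slc35f6 (0.994), Gpnmb (0.992), Slc38a6 (0.992) and Gpr137b (0.991). These libraries fall into 4 groups and share stimulation and genotype, and 240 of the 8571 genes compared had an r over 0.95. In the 8 RAW264.7 libraries N4bp2l1 was closest (0.996), and 676 of 8851 genes had an r over 0.95.

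The fold change that chose the set was not taken from the Akr1a1 experiment, but the members were chosen with earlier results of these data known. In this experiment stimulation again raised Mmp12, Mmp13 and Mmp9. It lowered Timp2 in both genotypes, whereas in the iNOS experiment Timp2 fell in iNOS KO only and changed by 0.34 on the log2 scale in wildtype. Mmp12 was at 0.145 and 0.301 CPM in unstimulated and at 29.5 and 831 CPM in stimulated wildtype RAW264.7 libraries. In Akr1a1 KO libraries it was at 0.079 and 0.661 CPM unstimulated and at 387 and 638 CPM stimulated. Both stimulated wildtype libraries were far above the unstimulated ones, but they stood apart from each other by more than the genotypes did. The response was 10.66 on the log2 scale in wildtype (SE 1.78, edgeR adjusted p = 0.00187) and 10.09 in Akr1a1 KO (SE 1.72, edgeR adjusted p = 0.00197). It ranged in wildtype from 6.85 without replicate B to 11.68 without replicate A of the stimulated libraries, and was 11.46 without replicate B of the unstimulated ones. In Akr1a1 KO it was 12.56 without replicate B of the unstimulated libraries.

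Between stimulated Akr1a1 genotypes, Mmp12 had a log2 fold change of 0.25 (edgeR adjusted p = 0.964) with overlapping libraries. Replicate B of stimulated wildtype decides this value. Without it the log2 fold change was 4.10 (edgeR adjusted p = 0.0155), and without replicate A of the same group it was -0.73. Unstimulated, the log2 fold change was 0.82 (edgeR adjusted p = 0.998).

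Mmp13 held 0 counts in the 4 unstimulated RAW264.7 libraries and reached 5.88 and 12.0 CPM in stimulated wildtype and 19.0 and 41.9 CPM in stimulated Akr1a1 KO libraries. It was at least 188-fold higher with stimulation in wildtype (edgeR adjusted p = 0.000564) and at least 426-fold higher in Akr1a1 KO (edgeR adjusted p = 0.000274), each against 3 counts over the unstimulated group. The fitted log2 value of the latter was 12.29, and 11.68 without replicate B of stimulated Akr1a1 KO. The stimulated genotypes did not overlap, and the log2 fold change of Akr1a1 KO against wildtype was 1.76 (SE 0.494). It did not pass by edgeR (adjusted p = 0.290) and passed by DESeq2 (adjusted p = 0.0311) and in edgeR with no filter on low counts (adjusted p = 1.22e-06).

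Mmp9 was at 3.41 and 5.31 CPM in unstimulated and 188 and 324 CPM in stimulated wildtype libraries, and at 1.88 and 4.45 CPM in unstimulated and 114 and 1026 CPM in stimulated Akr1a1 KO libraries. It rose by 5.83 on the log2 scale in wildtype (SE 1.01, edgeR adjusted p = 0.00224) and by 7.40 in Akr1a1 KO (SE 1.09, edgeR adjusted p = 0.000911). The Akr1a1 KO rise was 5.10 without replicate B and 8.25 without replicate A of its stimulated libraries, and 8.24 without replicate B of its unstimulated ones. Between stimulated genotypes the log2 fold change was 1.15 (edgeR adjusted p = 0.642), which became -1.18 without replicate B of stimulated Akr1a1 KO.

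Timp2 was at 21.9 and 39.3 CPM in unstimulated wildtype, 6.84 and 7.26 CPM in stimulated wildtype, 14.0 and 7.93 CPM in unstimulated Akr1a1 KO and 2.48 and 5.21 CPM in stimulated Akr1a1 KO libraries. It fell with stimulation by 2.12 in wildtype (SE 0.427, edgeR adjusted p = 0.00487) and by 1.49 in Akr1a1 KO (SE 0.438, edgeR adjusted p = 0.0264) on the log2 scale. The fall in Akr1a1 KO did not pass without replicate A of the stimulated libraries (-1.07, edgeR adjusted p = 0.137) or of the unstimulated libraries (-1.04, edgeR adjusted p = 0.152), and was -2.12 without replicate B of the stimulated ones. Unstimulated Akr1a1 KO libraries were below wildtype with no overlap (log2 fold change -1.50, SE 0.415). This did not pass by edgeR (adjusted p = 0.286) and passed by DESeq2 (adjusted p = 0.0381) and in edgeR with no filter on low counts (adjusted p = 3.1e-06).

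Mmp19 lay between 2.03 and 11.2 CPM over the 8 RAW264.7 libraries, with responses of 0.15 in wildtype (edgeR adjusted p = 0.873) and 0.53 in Akr1a1 KO (edgeR adjusted p = 0.519). Timp1 lay between 0.074 and 1.46 CPM, with responses of -0.20 in wildtype (edgeR adjusted p = 0.901) and -0.07 in Akr1a1 KO (edgeR adjusted p = 0.974). Mmp8 held 0 counts in all 8 libraries and Mmp14 held 2 counts, both in replicate B of stimulated Akr1a1 KO. Mmp14, at 10.6 to 46.9 CPM in 9 of the 12 libraries of the iNOS experiment, was thus near 0 in the Akr1a1 experiment.

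Of the 6 members tested, 4 passed an adjusted p of 0.05 with stimulation in each genotype, 3 higher and 1 lower. Over all genes, 37.7% passed in wildtype, 18.5% higher and 19.2% lower, and 39.2% passed in Akr1a1 KO, 19.8% higher and 19.4% lower. The members' medians were 2.99 and 3.96 on the log2 scale, beside -0.03 and 0.02 over all genes. Between genotypes, 0 of 6 passed by edgeR in either state. At an unadjusted p under 0.05 there was 1 member in each state, Timp2 in unstimulated cells and Mmp13 in stimulated cells, and DESeq2 called 1 in each. Over all genes, 0.583% passed between unstimulated genotypes, 0.23% higher and 0.353% lower, and 0.286% between stimulated genotypes, 0.0869% higher and 0.199% lower. The interaction passed for 0 of 6 members by edgeR, with 0 of 6 at an unadjusted p under 0.05, and for 0.0204% of all genes.

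**Figure D4:**
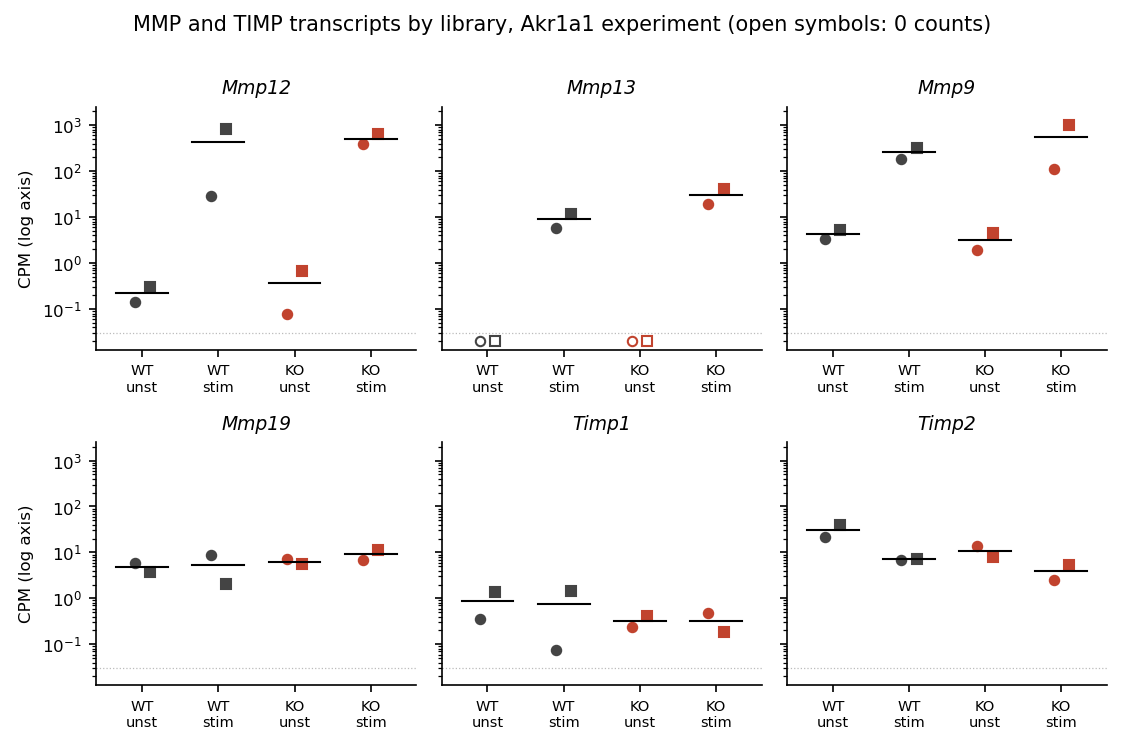
Levels of MMP and TIMP transcripts in the Akr1a1 experiment, in CPM on a log axis, for wildtype (WT, grey) and Akr1a1 KO (red) RAW264.7 libraries, unstimulated and stimulated. Circles and squares are replicates A and B, lines are group means, and open symbols under the dotted line are libraries with 0 counts. Mmp12 of stimulated wildtype libraries stood at 29.5 and 831 CPM, on both sides of the 387 and 638 CPM of stimulated Akr1a1 KO libraries.

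The ratio of summed MMPs to summed TIMPs, per kb, was 0.224 to 0.439 in unstimulated wildtype and 33.7 to 60.2 in stimulated wildtype RAW264.7 libraries. It was 0.660 to 1.17 in unstimulated and 81.2 to 256 in stimulated Akr1a1 KO libraries. With 2 libraries a group an exact permutation test could not reach a p of 0.05, and none was run.

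Of the 18 other MMP and TIMP genes listed, 7 were tested in the iNOS experiment and 6 in the Akr1a1 experiment. Between genotypes 0 of them passed by edgeR in any state. Over all genes, 19.6% passed between stimulated and 1.66% between unstimulated iNOS genotypes, and 0.286% and 0.583% between the Akr1a1 ones. At an unadjusted p under 0.05 there were 0 of these genes in the iNOS experiment. In the Akr1a1 experiment there was 1, Mmp28 in stimulated cells, named after its values were seen. In the iNOS experiment Mmp25, a membrane-anchored MMP, was 112-fold higher with stimulation in wildtype and 89.0-fold higher in iNOS KO, from 1 and 2 unstimulated counts. The exact 95% counting intervals were 19.6 to 4483 and 24.2 to 743. It was at 1.89 to 2.22 CPM in stimulated wildtype and 2.18 to 3.32 CPM in stimulated iNOS KO libraries. Mmp3 (stromelysin 1) and Mmp10 (stromelysin 2), members of the chromosome 9 cluster, differed between the experiments in level. Mmp3 held 0 counts in the 4 unstimulated RAW264.7 libraries, and was at 0.744 and 6.98 CPM in stimulated wildtype and 9.92 and 10.6 CPM in stimulated Akr1a1 KO libraries. It was at least 86.3-fold higher with stimulation in wildtype (edgeR adjusted p = 0.00714) and at least 142-fold higher in Akr1a1 KO (edgeR adjusted p = 0.00405). Mmp10 was at least 11.6-fold higher in wildtype (edgeR adjusted p = 0.0343) and at least 8.96-fold higher in Akr1a1 KO (edgeR adjusted p = 0.0366), as bounds on the groups. The wildtype value rested on replicate B, with 17 counts (0.957 CPM), while replicate A held 1 count (0.074 CPM). Stimulated Akr1a1 KO libraries held 9 and 11 counts. In the iNOS experiment Mmp3 held 3 counts over the stimulated wildtype libraries and 8 over the stimulated iNOS KO libraries, where it was at least 3.54-fold higher than unstimulated (edgeR adjusted p = 0.0153).

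Genes that activate or clear MMPs were read from a list of 17, of which 11 were tested in the iNOS experiment. Between stimulated genotypes 1 was higher and 4 were lower in iNOS KO, with a median log2 fold change of -0.68. Over all genes 10.7% were higher and 8.87% lower. Bsg, the surface glycoprotein known as an inducer of MMPs, measured 1094, 1221 and 1263 CPM in wildtype libraries and 424, 500 and 424 CPM in iNOS KO libraries (log2 fold change -1.41, edgeR adjusted p = 8.6e-11). Itgb3, an integrin subunit, had a log2 fold change of -2.55 (edgeR adjusted p = 1.23e-06), and Plat, tissue plasminogen activator, one of -2.05 (edgeR adjusted p = 0.000285). Among the lower genes, Serpinb2 fell outside the limit of 4 named genes and is named after its values were seen, at -1.36 (edgeR adjusted p = 0.000135). Itgb3 was the 1 call of the 11 between unstimulated genotypes (-1.72, SE 0.289, edgeR adjusted p = 0.00109), where 1.66% of all genes passed.

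With stimulation 6 of the 11 passed in wildtype and 4 in iNOS KO, and all of these were higher, where 19.7% and 14% of all genes were higher. Plaur, the urokinase receptor, rose by 2.50 and 1.81, and Furin, a convertase that removes propeptides, rose by 2.47 and 2.83 on the log2 scale in wildtype and iNOS KO. In RAW264.7 cells, where calls had no fold limit, 9 of the 10 tested rose in wildtype and 8 in Akr1a1 KO, beside 18.5% and 19.8% of all genes. Plaur rose there by 5.45 and 5.01. Between Akr1a1 genotypes 0 of the 10 passed by edgeR in either state, beside 0.286% of all genes in stimulated and 0.583% in unstimulated cells. At an unadjusted p under 0.05 there were 2 of the 10 in stimulated and 0 in unstimulated cells.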

How the data were processed

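Bulk poly-A RNA-seq of 20 mouse libraries was analysed from the deposited gene counts. According to the study's methods and the submitters' processing notes, the authors filtered reads, aligned them to mm10 with STAR and counted them per gene. The counter, annotation and strand setting are not given in the sources used here. The deposited values are whole-number counts, not normalized, for 56748 genes per table.

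A gene was tested where its counts summed to 10 or more, which 18691 did in the iNOS and 19569 in the Akr1a1 experiment. After TMM scaling, edgeR 4.0.16 under R 4.3.3 fitted a mean for each group in each experiment (quasi-likelihood F tests, 2-sided, Benjamini-Hochberg over all genes tested). Calls needed an adjusted p below 0.05 and, in the iNOS experiment but not for its interaction, a log2 fold change beyond 1 in size. A group with 0 counts was set to 3 counts in total for a bound on a fold. At most 4 genes were named per other list and comparison, by size of fold change among those that passed, and the 5 genes most like Mmp12 by Pearson's r on log2 CPM. The values of 1 gene of the list on activation and clearance are not reported here.

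The members and lists were chosen with earlier results of these data known. Groups came from the labels. Same-letter replicates deviated together in 1 comparison, stimulated against unstimulated iNOS KO (correlations of 0.404, 0.497 and 0.121), which was taken as paired by the data and refitted with a replicate block. Stimulated replicate C also followed unstimulated replicate A there (0.402), so the correlations do not single out same letters. The p-values given for the iNOS KO responses are from the fit without the block. Over all group pairs the correlations ran from -0.517 to 0.497 in the iNOS experiment. In the Akr1a1 experiment they were 0.438 in wildtype and 0.103 in Akr1a1 KO between states and -0.165 to -0.0076 between genotypes, and no source ties its letters to clones. Alternatives were DESeq2 1.42.0, other scalings, filters and fold limits, a replicate block, and leaving out each library. On simulated counts for the iNOS experiment (18293 genes), 96 of 106 changes of 1 log2 unit and 94 of 94 of 2 units were recovered, and for the Akr1a1 experiment (18972 genes) 30 of 109 and 69 of 91. Recovery here was by adjusted p below 0.05 alone, for changes planted in genes with a mean over 1 CPM. The fold limit of the iNOS calls was not applied, so recovery under the full rule, or for genes of lower level, was not measured. Figures were drawn with matplotlib 3.10.9.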

Additional observations from a re-analysis of the deposited data

Results flagged for a closer look

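For 5 members of the iNOS experiment the response to stimulation is given by genotype, as a description and not as a test, because it contains the comparison that chose the set. They were picked by the interaction term of edgeR's fit. The response in iNOS KO minus that in wildtype was -3.74 for Mmp12, -1.37 for Timp2, 4.34 for Mmp14, 1.47 for Mmp9 and 0.96 for Mmp19 on the log2 scale. For Mmp12 the response was 5.98 in wildtype and 2.24 in iNOS KO, and for Mmp14 it was 1.56 and 5.90, the latter from 1, 5 and 6 counts in the unstimulated libraries.

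The log2 fold change of Timp2 with stimulation had opposite signs in the wildtype cells of the 2 experiments. In the libraries labelled BMDM it was 0.34, under the fold limit, and all 3 stimulated libraries were above the unstimulated ones in CPM. Its counts there summed to 684 unstimulated and 686 stimulated. That small rise therefore came from the scaling, with TMM factors of 0.813 to 0.853 stimulated and 1.13 to 1.15 unstimulated. In RAW264.7 cells the log2 fold change was -2.12, and both stimulated libraries were below. The experiments were scaled separately, the IFNγ dose given by the labels depends on the cell type, on which labels and methods differ for the first experiment, and the difference between them was not tested.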

How the results depend on the processing

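Of 1116 recomputed member fold changes, 640 started from 36 called values and 0 of these turned sign, while 6 missed the threshold. The 36 include the 7 of the comparison that chose the set, the 5 of the interaction that contains it and the responses of Mmp12. These counts are therefore a description, and none was made without those values. Between Akr1a1 genotypes the member count of 0 became 1 (stimulated) and 1 (unstimulated) by DESeq2, and 2, 1 and, for the interaction, 1 with no filter. Leaving out 1 library gave 0 to 1 stimulated. The cause was not tested.

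Over all genes, Akr1a1 counts moved as follows. Stimulated, 56 became 480 by DESeq2, 1015 with no filter, 12 with only the groups compared, 6 to 108 with 1 library left out and 14 without both libraries whose titles conflict (an alternative added after seeing the data). Unstimulated, 114 became 406, 846, 22 to 177 and 8 by DESeq2, no filter, 1 library left out and without both. The interaction count of 4 became 90 by DESeq2, 285 with no filter, 2 with DESeq2 size factors, 1 with filterByExpr, 2 with the replicate block, 0 to 14 with 1 library left out and 0 without both. The share called higher in it, 25% of 4 genes, was 50% under DESeq2 size factors and the replicate block, 37.5% with no filter, 100% with filterByExpr and 7.14% to 100% with 1 library left out. Responses went from 7377 to 4778 (fold limit), 5220 to 7187 (1 library left out) and 4158 (without both) in wildtype, and from 7675 to between 5267 and 8394 (1 library left out) and 4497 (without both) in Akr1a1 KO. Without a fold limit the iNOS counts rose from 3655 to 9040 (stimulated), 310 to 1117 (unstimulated), 6611 to 11384 (wildtype response) and 4258 to 9706 (iNOS KO response). The replicate block moved no member count by over 1.5 times, and refits of each response on only the groups compared with the block, added after seeing the data, called 7 members in iNOS KO, 6 in wildtype of the iNOS experiment and 4 in each RAW264.7 genotype, as without it.

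Uncalled log2 fold changes turned sign in these cases. With 1 library left out, the Akr1a1 KO difference ranged from -0.73 to 4.10 for Mmp12, -1.18 to 1.97 for Mmp9 and -2.17 to 2.04 for Timp1 in stimulated cells, and from -1.65 to 1.62 for Mmp12 in unstimulated cells. The Akr1a1 interaction ranged from -1.59 to 3.24 for Mmp12, -0.38 to 1.70 for Mmp19, -0.80 to 2.41 for Mmp9, -1.18 to 3.40 for Timp1 and -0.060 to 1.08 for Timp2. The response ranged from -0.85 to 0.47 for Timp1 in Akr1a1 KO, and from -1.17 to 0.91 for Mmp19 and -3.47 to 1.12 for Timp1 in wildtype RAW264.7 cells. In the iNOS experiment Mmp13 ranged from -0.49 to 0.045 (stimulated), -0.13 to 1.40 (unstimulated) and -1.52 to 0.013 (interaction), and Mmp19 from -0.0049 to 0.18 (unstimulated). Without both libraries whose titles conflict, Mmp12 was -0.82 between unstimulated Akr1a1 genotypes, the interaction was 1.07 for Mmp12, -0.65 for Timp1 and -0.22 for Timp2, and the response was 0.45 for Timp1 in Akr1a1 KO and -0.16 for Mmp19 and 1.11 for Timp1 in wildtype. The Akr1a1 KO response of Timp1 was 0.032 by DESeq2 and 0.26 with the replicate block, under which the interaction of Mmp12 was 0.67. The wildtype RAW264.7 response of Mmp19 was -0.10 with the block on only the groups compared.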

Other observations

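Transcription factors known to act on MMP promoters, a list of 12, did not follow one direction in the iNOS experiment. With stimulation 4 passed as higher and 3 as lower in wildtype, and 6 as higher and 3 as lower in iNOS KO. Over all genes 19.7% were higher and 15.7% lower in wildtype, and 14% and 8.78% in iNOS KO. Fosb rose by 2.67 and 2.12, Junb by 1.47 and 1.81, while Fos changed by -1.48 and -1.78 and Fosl2 by -1.55 and -1.71 on the log2 scale in wildtype and iNOS KO. In RAW264.7 cells 9 of the 12 rose in wildtype and 11 in Akr1a1 KO, with 0 lower, and Fos rose there by 1.72 and 2.70. Over all genes 18.5% and 19.8% were higher. These calls had no fold limit, so their counts and those of the iNOS experiment rest on unlike thresholds. Fosl1 rose most by fitted log2 value in wildtype RAW264.7 cells, by 4.39, and by 3.94 in Akr1a1 KO. Between stimulated iNOS genotypes 1 of the 12 passed, Etv4, a PEA3 factor, at 2.91, 3.31 and 3.33 CPM in wildtype and 6.23, 8.0 and 5.67 CPM in iNOS KO (log2 fold change 1.05, edgeR adjusted p = 3.43e-05). Of all genes 19.6% passed in that comparison.

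Matrix genes that MMPs act on were read from a list of 16, of which 9 were tested in the iNOS experiment. Fibrillin 1 (Fbn1) was at least 42.5-fold higher with stimulation in wildtype and at least 120-fold higher in iNOS KO, and among stimulated cells its level was higher in iNOS KO (log2 fold change 1.35, edgeR adjusted p = 0.000194). Tenascin C (Tnc) was lower in that comparison (-1.12, edgeR adjusted p = 0.0424). With stimulation 4 rose in wildtype and 5 in iNOS KO, where 19.7% and 14% of all genes were higher. In RAW264.7 cells 3 rose and 1 was lower in wildtype, and 2 rose and 1 was lower in Akr1a1 KO. There, with no fold limit, 18.5% of all genes were higher and 19.2% lower in wildtype, and 19.8% and 19.4% in Akr1a1 KO. Of the 12 ADAM and ADAMTS proteases listed, 7 were tested in the iNOS experiment, and Adamts1, Adamts4 and Adam8 rose with stimulation by 4.57, 4.73 and 2.07 in wildtype and by 4.85, 3.44 and 1.44 in iNOS KO on the log2 scale. In RAW264.7 cells 4 rose and 1 was lower in wildtype, and 3 rose and 1 was lower in Akr1a1 KO, the lower one being Adam10 (-1.82 and -1.90). Between unstimulated iNOS genotypes edgeR called 0 of the tested genes of each of these 3 lists, beside 1.66% of all genes. At an unadjusted p under 0.05 were 6 transcription factors, 3 matrix genes and 3 proteases. Fosl2, Jun, Jund and Adamts1, named after their values were seen, were past the adjusted p threshold but under the fold limit. Between Akr1a1 genotypes 0 of each list were called, beside 0.286% of all genes in stimulated and 0.583% in unstimulated cells. At an unadjusted p under 0.05 were 3, 2 and 3 in stimulated cells and 3, 1 and 0 in unstimulated cells.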
